A study of Homo sapiens with 9 samples.

Results

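Replication-dependent histone genes encode the linker histone H1 and the core histones H2A, H2B, H3 and H4 that package newly made DNA. The cells studied were A375P, a human melanoma line with a mutant BRAF kinase, with 1 deposited column (called an array below) per treatment and time. Cells received PD184352, which inhibits kinases of the MEK family, at 1 µM, or PLX4720, a RAF kinase inhibitor, at 0.4 µM, for 2, 6 or 24 h, or the solvent DMSO for the same times. Members were the rows of the gene-level array whose platform annotation held only symbols of these histone families (H1-1 to H1-6, and the H2AC, H2BC, H3C and H4C series). They numbered 57 of 22719 rows with a gene symbol, and 35446 rows in all. These 57 rows named 58 gene symbols, all of them found in the RefSeq gene table. There were 6 H1, 13 H2A, 17 H2B, 9 H3 and 11 H4 rows, and 1 row that named both an H3 and an H2A gene. Of these, 4 rows named several genes, and H2AC15 had 2 rows.

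Most of these genes lie in clusters, lack introns and are transcribed chiefly in S phase, so that histone supply follows DNA synthesis. Their mRNAs typically end in a conserved stem-loop, bound by SLBP, and not in a poly(A) tail. A minority, among them H1-2, H2AC6, H2BC5 and H2BC21, are known to give polyadenylated transcripts as well, which can be made outside S phase. Most genes of a core histone class have nearly the same coding sequence. Signal shared between copies could not be separated here, and each row is uncertain as to which copies it measures.

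The promoters of 7 members whose rows differed in their response, and of the H4 gene that rose, are shown with the promoter elements searched for. Not every promoter holds each element. Each line gives the 200 bases before the annotated RefSeq start, 5′ to 3′ on the gene's strand (GRCh38.p14). Capitals mark the octamer bound by OCT1 (ATTTGCAT), the CCAAT box (CCAAT), the TATA box (TATAAA), the E2F site (TTTGGCGC or TTTCGCGC) and the H1 box (AAACACA), searched on both strands.
H2BC14, chr6:27814822-27815021, plus strand: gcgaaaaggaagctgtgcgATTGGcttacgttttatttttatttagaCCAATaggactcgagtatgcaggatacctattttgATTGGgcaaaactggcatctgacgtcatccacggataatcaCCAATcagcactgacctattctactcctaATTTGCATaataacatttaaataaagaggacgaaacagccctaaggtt
H2BC3, chr6:26043714-26043913, minus strand: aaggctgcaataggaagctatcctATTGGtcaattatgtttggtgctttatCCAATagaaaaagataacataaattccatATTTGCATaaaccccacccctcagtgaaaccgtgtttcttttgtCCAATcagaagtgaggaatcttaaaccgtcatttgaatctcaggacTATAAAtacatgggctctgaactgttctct
H2BC21, chr1:149886683-149886882, minus strand: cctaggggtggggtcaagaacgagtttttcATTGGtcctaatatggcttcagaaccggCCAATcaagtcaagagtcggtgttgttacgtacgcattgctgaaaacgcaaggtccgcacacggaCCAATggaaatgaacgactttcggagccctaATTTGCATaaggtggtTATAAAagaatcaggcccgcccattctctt
H2AC4, chr6:26033619-26033818, minus strand: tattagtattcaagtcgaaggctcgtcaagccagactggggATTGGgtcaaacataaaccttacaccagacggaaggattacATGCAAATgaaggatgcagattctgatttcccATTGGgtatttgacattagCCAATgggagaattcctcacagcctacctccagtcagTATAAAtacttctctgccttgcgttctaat
H1-1, chr6:26017788-26017987, minus strand: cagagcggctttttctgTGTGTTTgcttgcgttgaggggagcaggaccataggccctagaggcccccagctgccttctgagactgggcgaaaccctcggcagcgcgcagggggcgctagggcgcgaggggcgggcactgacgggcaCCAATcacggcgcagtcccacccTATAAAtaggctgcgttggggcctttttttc
H3C2, chr6:26032100-26032299, minus strand: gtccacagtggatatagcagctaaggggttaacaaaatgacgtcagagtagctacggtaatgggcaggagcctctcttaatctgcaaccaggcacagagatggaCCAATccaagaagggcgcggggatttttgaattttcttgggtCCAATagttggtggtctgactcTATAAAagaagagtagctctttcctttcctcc
H4C4, chr6:26189113-26189312, minus strand: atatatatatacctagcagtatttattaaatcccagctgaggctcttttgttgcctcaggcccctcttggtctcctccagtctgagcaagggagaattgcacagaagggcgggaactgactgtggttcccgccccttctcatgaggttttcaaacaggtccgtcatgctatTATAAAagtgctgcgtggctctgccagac
H4C16, chr12:14771132-14771331, minus strand: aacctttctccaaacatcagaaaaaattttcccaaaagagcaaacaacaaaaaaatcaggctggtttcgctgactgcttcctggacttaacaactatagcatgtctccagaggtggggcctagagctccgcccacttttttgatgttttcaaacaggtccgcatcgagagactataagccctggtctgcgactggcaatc

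In these windows the TATA box began 29 to 32 bases before the start in H2BC3, H2AC4, H1-1, H3C2, H4C4 and H2BC21. The octamer lay 48 bases before the start in H2BC14 and 46 in H2BC21, on the gene's strand, and 120 bases before it in H2BC3. In H4C4 only the TATA box occurred, and in H4C16 none of these letters occurred in the 200 bases shown. No E2F site occurred in any window shown. RefSeq promoters of 300 bases around the start were held for 53 of the 58 symbols. These reach beyond the 200 bases shown, and in them H2BC14 held an E2F site and TATAAA, and H4C16 held TATAAA. The octamer was found in 13 of 17 H2B and 10 of 13 H2A promoters, in 1 of 8 H3 promoters and in none of 6 H1 and 9 H4 promoters, against 1.8% of 27305 promoters. The H1 box was in all 6 H1 promoters and in no other member's, against 5.76% of all promoters. CCAAT was found in 47 of the 53 member promoters and TATAAA in 33, against 35.7% of all promoters for CCAAT and 3264 of 27305 for TATAAA. An E2F site was present in 11 of the 53, against 1.18%. No match of one motif overlapped a match of another (0 in these promoters). A match of letters is a description and not a bound site.

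The arrays were alike in scale, with median intensities between 98.96 and 102.4, and no array was a copy of another. MITF, SOX10, PMEL and S100B, markers of the melanocyte lineage, had means above the brightness threshold described next, as did MLANA. PTPRC of leukocytes, PECAM1 of endothelium and DCN of fibroblasts were below it, while KRT14 of keratinocytes and COL1A1 of fibroblasts were above it. The table has 1 column per treatment and time, and nothing says whether it is an average of cultures, so the only spread available to a test was that between the 2 compounds at a time. The p-values below therefore measure the spread between compounds that share a DMSO array, not between cultures, and in bulk RNA fewer cells making a transcript and less transcript per cell cannot be told apart. Levels are deposited intensities, and changes are differences of log2(intensity + 1), which understates the change of dim rows. The 25% of named rows with the lowest mean over the 9 arrays (under 5.97 on this scale) were left out of the tests, which took 47 of the 57 histone rows and left out 7 H2B rows, 2 H2A rows and 1 H3 row.

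At 24 h histone rows were low with both inhibitors. Of all 57 rows, 45 were lower on both inhibitor arrays than on the DMSO array, against 39.8% of all named rows, and 8 were higher on both, against 39.3%. Of the 57 rows 22 were at least 2-fold lower on both, against 1.54%. The mean of both inhibitor arrays fell in 38 of the 47 tested rows (limma, adjusted p below 0.05), where 16.2% of all 17039 tested rows were called lower. It rose in 1, where 10.8% of all were called higher, and 8 did not pass. The 10 rows too dim to test had a median change of 0.15, with a range of −1.31 to 0.67. Among them 4 were lower on both inhibitor arrays and 6 were higher on both. With no filter on brightness, 40 of the 57 rows were called lower and 1 higher, against 10.3% and 7.16% of 22719 rows. The median change over all 57 rows was −0.88, a 1.84-fold lower level, and over all named rows it was 0.00. In the 38 rows called lower the level was 1.28-fold to 4.76-fold lower, and 24 of them were at least 2-fold lower. Of the 47 tested rows, 4 had a mean of the 24 h inhibitor arrays under the brightness threshold, and 2 of these were among the 38.

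**Figure D1:**
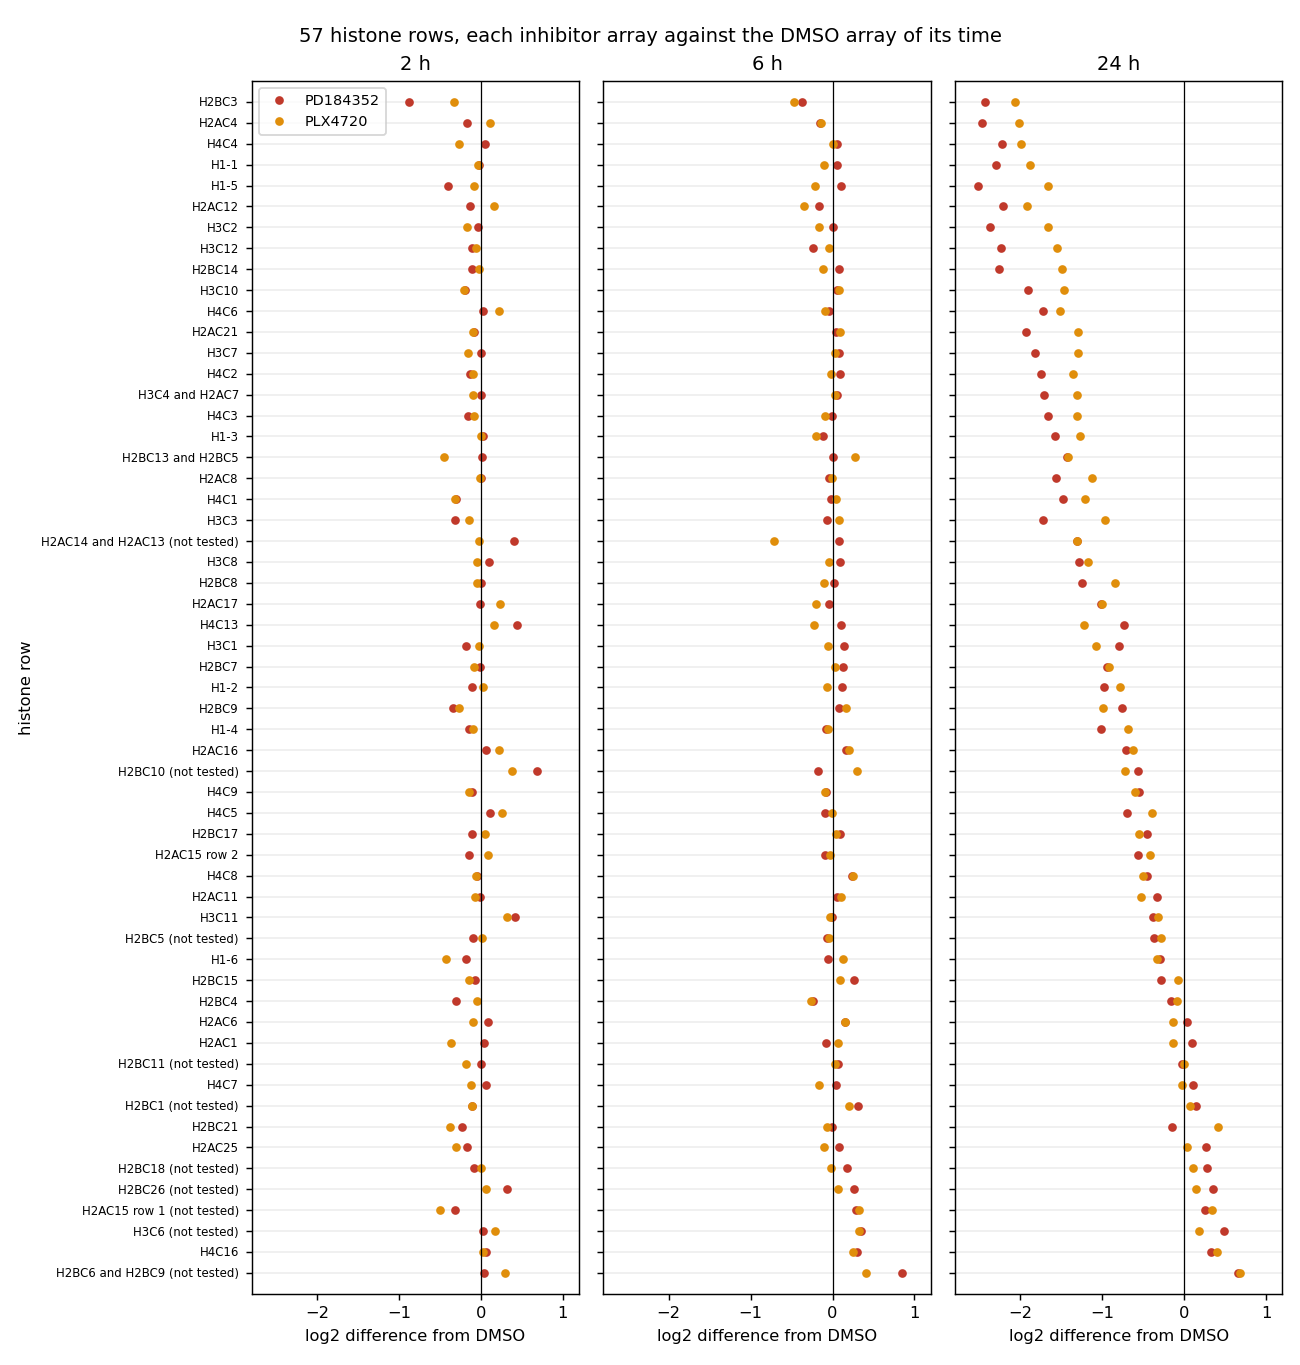
Log2 difference from the time-matched DMSO array (x axis) for the 57 histone rows (y axis, ordered by the mean change at 24 h), with 1 point for PD184352 and 1 for PLX4720, in panels for 2, 6 and 24 h. At 24 h the points of 45 rows lie left of 0 for both inhibitors, and the lowest mean change is −2.25 in H2BC3, while at 2 and 6 h the points scatter around 0.

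The linker histones H1 bind the DNA between nucleosomes. H1-1 read 2939, 2289 and 424.1 with PD184352 at 2, 6 and 24 h, 2909, 2059 and 566.1 with PLX4720, and 2977, 2213 and 2096 with DMSO. Both 24 h inhibitor arrays stood far under the other 7 arrays, which did not overlap with them. The change at 24 h was −2.09 (SE 0.15, adjusted p = 7.8e-05), or 4.27-fold lower. H1-5 stood at 221.0 with PD184352 and 400.1 with PLX4720 at 24 h, against 1271 with DMSO (−2.09, SE 0.30, adjusted p = 0.0014). H1-4, the H1 row with the highest mean, read 4593 with PD184352 and 5783 with PLX4720 at 24 h, against 9289 with DMSO, a smaller fall of 0.85 on the log2 scale (SE 0.13, adjusted p = 0.0018). H1-6, a testis histone singled out here after its values were seen, was at −0.32 (SE 0.12, adjusted p = 0.094) and did not pass. In all, 5 of 6 H1 rows fell, with a class median of −1.15.

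H2A and H2B pair as a dimer within the nucleosome. H2AC4 read 592.2, 505.5 and 101.6 with PD184352 at 2, 6 and 24 h, 723.2, 510.4 and 138.8 with PLX4720, and 668.1, 560.9 and 565.2 with DMSO. Its level at 24 h was 4.73-fold lower with inhibitor (−2.24, SE 0.18, adjusted p = 0.00010), and the DMSO arrays of 6 and 24 h were nearly level. H2AC12 had 344.7 and 424.8 with PD184352 and PLX4720 at 24 h, against 1606 with DMSO (−2.07, SE 0.16, adjusted p = 8.55e-05). H2AC21, the H2A row with the highest mean, had 1576 and 2448 at 24 h with PD184352 and PLX4720, against 6002 with DMSO (−1.61, SE 0.21, adjusted p = 0.00081). Of 11 tested H2A rows 8 fell, and the median over all 13 was −0.66. The 2 rows of H2AC15, named after their values were seen, disagreed: one fell (−0.49) and the other, too dim to test, was at 0.30.

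H2BC3 read 376.2, 441.8 and 85.8 with PD184352 at 2, 6 and 24 h, 553.4, 411.8 and 110.4 with PLX4720, and 694.2, 572.3 and 466.8 with DMSO. This H2B row had the lowest change of all 57 at 24 h, −2.25 (SE 0.22, adjusted p = 0.000205), and was also under its DMSO array at 2 h (−0.60) and 6 h (−0.42), where it did not pass (adjusted p = 0.63 and 0.45). H2BC14, the H2B row with the highest mean, read 2139 and 3659 with PD184352 and PLX4720 at 24 h, against 10256 with DMSO (−1.87, SE 0.25, adjusted p = 0.0011). Of 10 tested H2B rows 7 fell, and the median over all 17 rows, of which 7 were too dim to test, was −0.33.

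H3 and H4 form the tetramer at the centre of the nucleosome. H3C2 read 7984, 6885 and 1437 with PD184352 at 2, 6 and 24 h, 7285, 6135 and 2350 with PLX4720, and 8191, 6859 and 7428 with DMSO, and its change at 24 h was −2.01 (SE 0.24, adjusted p = 0.00052). H3C12 was at −1.90 (SE 0.23, adjusted p = 0.00060), and all 8 tested H3 rows fell, with a median of −1.34 over the 9 rows of the class. H4C4 read 1377, 1070 and 259.2 with PD184352, 1109, 1029 and 303.2 with PLX4720, and 1335, 1029 and 1211 with DMSO, a change of −2.11 at 24 h (SE 0.14, adjusted p = 6.2e-05). The 24 h inhibitor arrays of both genes lay below every other array. H4C3, the H4 row with the highest mean, fell by 1.48 on the log2 scale (SE 0.14, adjusted p = 0.00018). Of 11 H4 rows 9 fell and 1 rose, with a median of −0.98. The row of both H3C4 and H2AC7, named after its values were seen, was at −1.50 (SE 0.15).

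**Figure D2:**
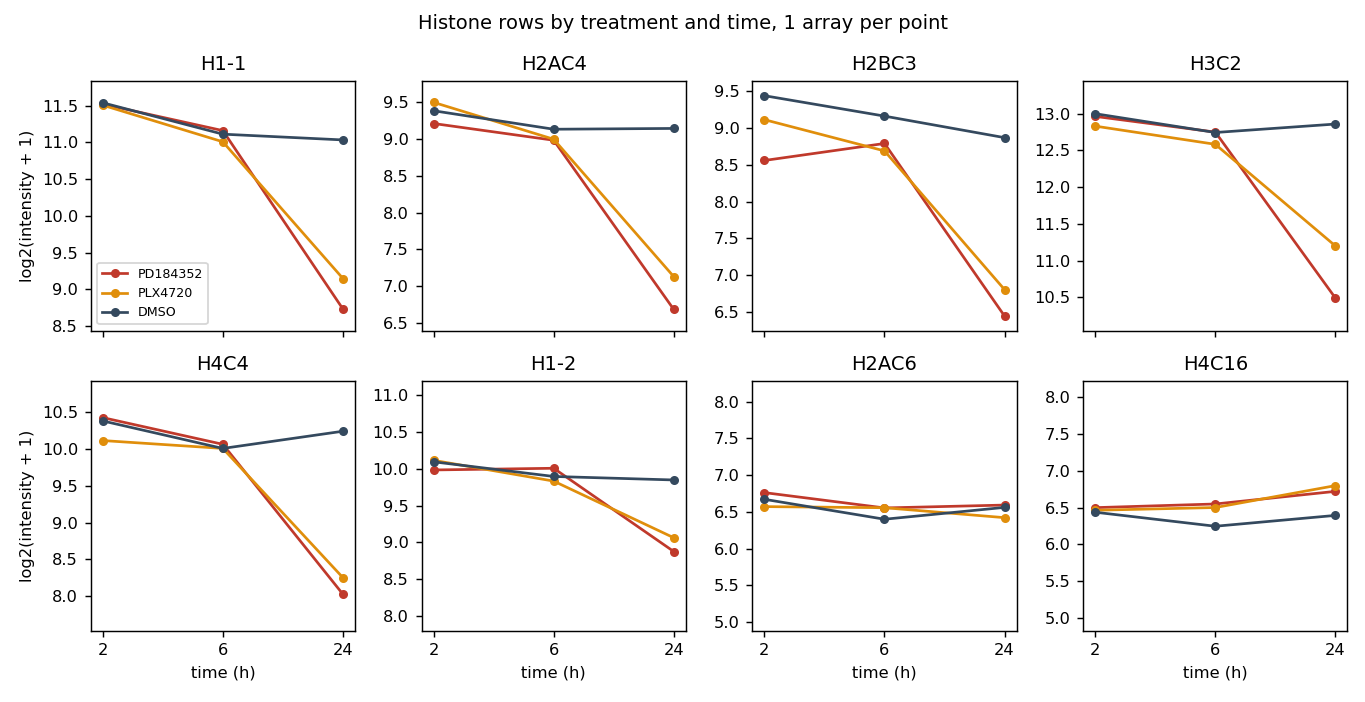
Level as log2(intensity + 1) on the y axis, of 1 array per point, against time in hours on the x axis (evenly spaced), for 8 histone rows under PD184352, PLX4720 and DMSO. In H1-1, H2AC4, H2BC3, H3C2 and H4C4 the 24 h inhibitor points drop away from DMSO, in H1-2 they drop less, and in H2AC6 and H4C16 they stay within 0.5 of DMSO.

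H4C16 was the 1 row that rose. This H4 gene was the only member on chromosome 12, away from the other member rows, which were on chromosomes 1 and 6. It read 89.4, 92.6 and 104.4 with PD184352 at 2, 6 and 24 h, 87.2, 89.5 and 110.3 with PLX4720, and 85.6, 74.9 and 83.0 with DMSO. The inhibitor arrays at 24 h were above all DMSO arrays, by a small margin. The change was 0.37 (SE 0.08, adjusted p = 0.013), and it no longer passed without the PLX4720 24 h array (0.33, adjusted p = 0.057).

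The rows of histone genes known to give polyadenylated transcripts were mixed at 24 h. Of 7 such rows 6 were tested, 3 fell and 3 did not pass, and the median over the 7 was −0.33, against −0.96 over the other 50 rows. All of these rows but H1-2 were among the 29 histone rows with the lower means over all arrays, whose median was −0.32. The difference between the lists, and how far brightness sets it, was not tested. H1-2 had 468.3 and 533.5 at 24 h with PD184352 and PLX4720, against 921.0 with DMSO, and fell by 0.88 on the log2 scale (SE 0.12, adjusted p = 0.00097). H4C8 was lower by less, at −0.48 (SE 0.08, adjusted p = 0.0030). The row of H2BC13 and H2BC5 was at −1.42 (SE 0.18, adjusted p = 0.00077), while the row of H2BC5 alone, too dim to test, was at −0.33.

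The other 3 tested rows gave no call. H2AC6 read 95.6 and 84.7 with PD184352 and PLX4720 at 24 h, against 93.5 with DMSO (−0.05, SE 0.11, adjusted p = 0.80). H2BC4 was at −0.12 (SE 0.11, adjusted p = 0.52), and passed at −0.39 (adjusted p = 0.038) when the 3 DMSO arrays served as 1 control. H2BC21 read 150.7 with PD184352 and 222.0 with PLX4720, against 167.1 with DMSO at 24 h, so the compounds lay on either side of DMSO (0.13, SE 0.19, adjusted p = 0.71). Without the PD184352 24 h array H2BC21 was called higher (0.41, adjusted p = 0.033).

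At 2 and 6 h no histone row was called by limma (0 of 47 at each time). An unadjusted p below 0.05 was found for 5 rows at 2 h and 2 at 6 h, and the lowest adjusted p was 0.40 and 0.17. Over all tested rows 1.6% were called lower and 0.241% higher at 6 h, and 0.00587% and 0.0% at 2 h. Of all 57 rows 27 were lower on both inhibitor arrays at 2 h and 17 at 6 h, against 35.4% and 37.3% of all named rows, and 11 and 21 were higher on both, against 30.9% and 35.8%. None was 2-fold lower on both (0 at each time, against 0.0264% and 0.246%). The median change over the 57 rows was −0.05 at 2 h and 0.01 at 6 h, with ranges of −0.60 to 0.53 and −0.42 to 0.63. The sign of these medians depended on the processing: over the 47 tested rows the 2 h median of −0.06 was 0.12 with the 3 DMSO arrays as 1 control, and the 6 h median of −0.02 was 0.044 after quantile normalization and 0.042 without the PLX4720 6 h array. The SE of the tested rows lay between 0.08 and 0.30, so a small early change was not detectable in the noisier rows. The change differed between the 3 times in 32 of the 47 tested rows by limma's F-test, where 10.4% of all rows passed. In 43 of the 57 rows, among them all 38 called lower, both inhibitor arrays of 24 h lay below all 7 other arrays, which held for 17.0% of all named rows. For the 38 the choice by the 24 h call favours this.

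Histone rows also differed between 6 h and 2 h within each treatment, DMSO included. The 6 h array was below the 2 h array in 45 of 57 rows with PD184352, 48 with PLX4720 and 50 with DMSO, against 45.5%, 53.1% and 47.1% of all named rows. The median difference over the 57 rows, 6 h minus 2 h, was −0.16 with PD184352, −0.23 with PLX4720 and −0.28 with DMSO, against 0.02, −0.01 and 0.01 over all named rows. In 36 rows the 6 h array was lower within all 3 treatments, against 17.2% of all named rows. From 6 h the courses parted: 24 h minus 6 h had a median of −0.90 with PD184352, −0.77 with PLX4720 and 0.01 with DMSO. These differences within a treatment were not tested.

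**Figure D3:**
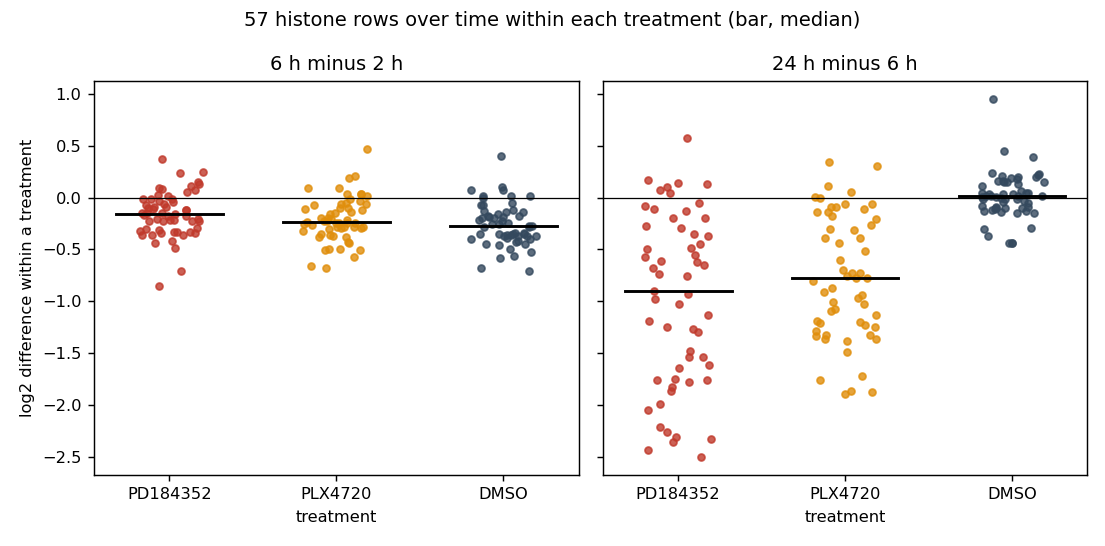
Log2 difference between times within a treatment (y axis) for the 57 histone rows, 1 point per row, with PD184352, PLX4720 and DMSO on the x axis and bars for the medians. In the panel of 6 h minus 2 h all 3 medians lie below 0 (−0.16, −0.23 and −0.28), and in that of 24 h minus 6 h the inhibitor medians are −0.90 and −0.77 and the DMSO median 0.01.

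PD184352 and PLX4720, at their different doses, gave changes of similar order at 24 h. The PD184352 array was below the PLX4720 array in 40 of the 57 rows, against 51.5% of all named rows, and in 31 of the 38 rows called lower, against 73.6% of all 2764 rows called lower. The difference was widest in H1-5, at −2.52 with PD184352 and −1.67 with PLX4720, each against the same DMSO array. In H2BC14 the values were −2.26 and −1.49, in H3C2 −2.37 and −1.66, and in H4C4 −2.22 and −1.99. The difference between compounds was not tested.

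Position and brightness were also described. Of the 57 rows 51 were of the HIST1 cluster, and 37 of its 43 tested rows fell. In the HIST2 cluster 1 of 2 tested rows fell, H2AC21, and H2BC21 did not pass. The HIST3 rows, H2AC25 and H2BC26 (named after their values were seen), were at 0.15 and 0.25, and H2AC25, the 1 tested, did not pass (adjusted p = 0.44). The 28 histone rows with the higher means over all arrays had a median change of −1.53 at 24 h and the 29 with the lower means one of −0.32. How far brightness itself sets this was not tested.

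In 10 pairs an H2A and an H2B gene stood head to head in RefSeq, with starts less than 300 bases apart, and 7 pairs had a row for each gene. Both genes fell in 2 of the 7, H2BC8 and H2AC8 (−1.04 and −1.35) and H2AC17 and H2BC17 (−1.01 and −0.50). H2BC4 and H2AC6 both gave no call (−0.12 and −0.05). H2AC1 and H2BC1 were at −0.02 and 0.11, and H2AC25 and H2BC26 at 0.15 and 0.25. In both of these pairs the H2A gene gave no call and the H2B gene was too dim to test. In the pair of H2AC11 and H2BC11, H2AC11 fell (−0.43) and H2BC11, too dim to test, was at −0.02. H2AC15 and H2BC15 differed in their calls, since H2AC15 fell (−0.49) and H2BC15 did not pass (−0.18); the difference itself was not tested. These pairs, too, were named after their values were seen. Some members had a promoter and a row of their own. Among these the octamer was in 12 of 31 called lower, 4 of 8 that did not pass and 4 of 7 not tested. An E2F site was in 6 of the 31, 0 of the 8 and 2 of the 7. These counts pool the classes, and no H1 or H4 promoter held the octamer. Among H2A members the median change at 24 h was −0.84 in 8 with the octamer and −0.17 in 2 without. Among H2B members it was −0.57 in 12 with the octamer and −0.18 in 3 without. For the E2F site the classes went opposite ways. The H2A medians were −0.66 in 3 with it and −0.49 in 7 without, and the H2B medians −0.26 in 4 with it and −0.33 in 11 without. These differences were not tested.

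Replacement histones, most of which are also made outside S phase, were set beside them. Of 11 listed genes 8 had a row of 1 symbol and were tested, of which 4 fell and 1 rose at 24 h, with a median of −0.24. Among all 17039 tested rows 16.2% were called lower and 10.8% higher. CENPA, the H3 variant of centromeres, fell by 1.29 on the log2 scale (SE 0.11), and H2AX, which marks DNA breaks when phosphorylated, by 0.89 (SE 0.09). H2AJ, an H2A variant, rose by 0.69 (SE 0.10), and H2AZ1 fell by 0.51 (SE 0.10).

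Genes for making histone mRNA and for loading histones on DNA also fell at 24 h. For these lists too, the shares over all tested rows were 16.2% called lower and 10.8% higher. Of 11 tested genes of histone transcription and mRNA 3′ end processing 8 fell and 1 rose, with a median of −0.47. The stem-loop binding protein SLBP fell by 0.47 (SE 0.10, adjusted p = 0.0089) and CASP8AP2, which acts in histone gene expression and processing, by 0.49 (SE 0.09, adjusted p = 0.0045), while the exonuclease gene ERI1 fell by 0.99 (SE 0.11) and CSTF2 by 0.87 (SE 0.10). ZNF473 and LSM11, which act in histone mRNA 3′ end processing, were at −0.78 (SE 0.15) and −0.55 (SE 0.12), both called lower. HINFP, a factor of H4 gene transcription named after its value was seen, rose by 0.35 (SE 0.11, adjusted p = 0.044). Of 15 histone chaperone and deposition genes 13 fell and none rose, with a median of −0.57. Among them were HJURP, the CENPA chaperone (−1.52, SE 0.11), the CAF-1 subunits CHAF1A (−1.40, SE 0.13) and CHAF1B (−1.12, SE 0.11), and the H3-H4 chaperone ASF1B (−1.12, SE 0.14). All 17 tested S phase genes fell, with a median of −1.26 over these 17, among them CDC45 (−2.01, SE 0.21), CCNE2 (−1.83, SE 0.13), CDC6 (−1.51, SE 0.10) and MCM6 (−1.47, SE 0.16). At 6 h and at 2 h limma called 0 genes of these 4 lists. Over all tested rows the called shares were 1.6% lower and 0.241% higher at 6 h, and 0.00587% and 0.0% at 2 h. An unadjusted p below 0.05 was found for 2 listed genes at 6 h and 1 at 2 h. It was found for 2380 and 1175 of all 17039 tested rows.

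**Figure D4:**
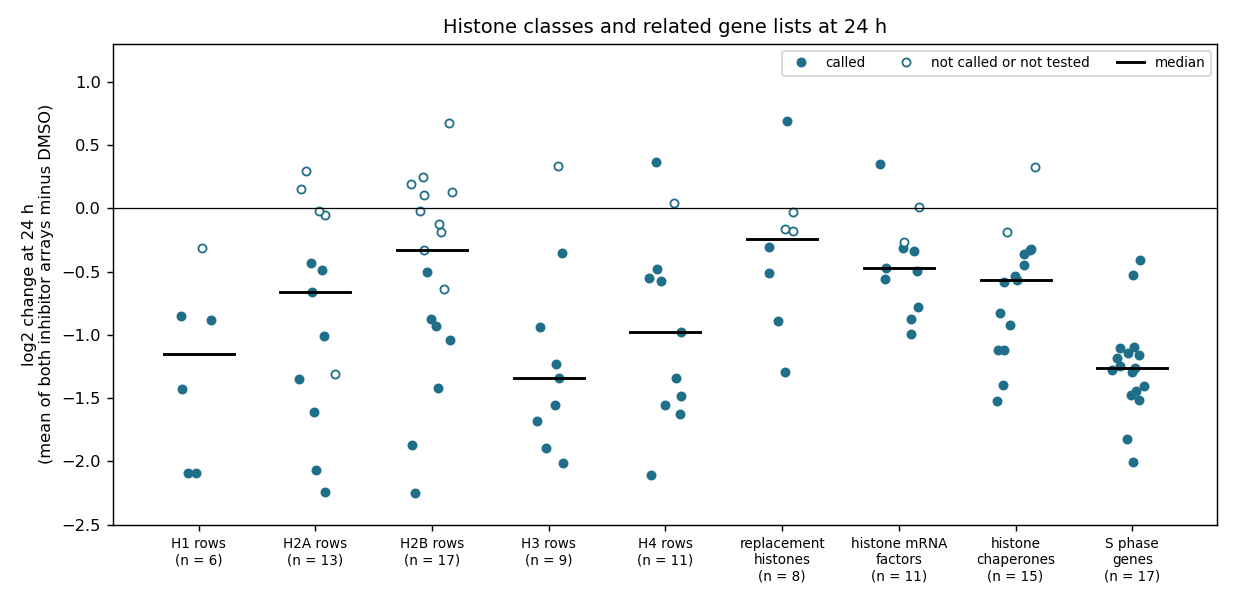
Log2 change at 24 h (y axis, mean of both inhibitor arrays minus the DMSO array) of the histone rows of 1 class and of the tested genes of 4 related lists (x axis, with the number of rows). Filled points were called at an adjusted p below 0.05, open points were not called or not tested, and bars are medians, which run from −1.34 (H3 rows) to −0.24 (replacement histones). The row of both H3C4 and H2AC7 is not plotted.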

How the data were processed

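The deposited table holds intensities on a linear scale, all positive, as the authors made them; per the submitters' processing notes, the tools were R 2.8.0 with RMA and limma, with no role or order. Whether triplicates were averaged into a column, and the genome build, are not given in the sources used here. Rows were named from the platform table: 19380 had 1 symbol, 3339 several, and 12727 were not in it. A row with several symbols was kept as 1 row. limma 3.58.1 (R 4.3.3) was fitted to log2(intensity + 1) with 6 group means, either inhibitor or DMSO at each time (residual degrees of freedom 3), on 17039 rows after leaving out 5680 dim ones, with Benjamini-Hochberg adjustment over all rows. SE are moderated. The fit was tested on simulated data. In related lists the brightest row of 1 symbol stood for a gene, and NPAT and others without one are not analysed here. PCNA was left out of the S phase counts because its 1-symbol row was too dim to test (0.28 at 24 h). That row may measure a similar sequence. Members, lists, motifs and tests were chosen with earlier results of these data known. Named rows were the 8 largest falls and rises called at 24 h, the brightest and most changed row of each class, the polyadenylated list, and, by size, at most 4 from each other list, besides SLBP and CASP8AP2; any other was named after its values were seen, as said beside it. Alternatives were another filter, pseudocount, normalization, DMSO control, choice of rows, and each array left out. The number of arrays limits the precision.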

Additional observations from a re-analysis of the deposited data

Results flagged for a closer look

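For 15 of the 19 tested rows among the named histone rows the change with inhibitor differed between 2, 6 and 24 h by limma's F-test (adjusted p below 0.05), where 10.4% of all tested rows passed. Many of these rows were named for their large change at 24 h, which favours a difference between times. The 24 h change minus the 2 h change was −2.07 in H1-1, −1.85 in H1-5, −0.72 in H1-4 and −0.84 in H1-2. Among H2A rows it was −2.21 in H2AC4, −2.08 in H2AC12 and −1.52 in H2AC21. Among H2B rows it was −1.65 in H2BC3, −1.81 in H2BC14 and −1.20 in the row of H2BC13 and H2BC5. It was −1.91 in H3C2 and −1.81 in H3C12, and −2.00 in H4C4, −1.36 in H4C3 and −0.42 in H4C8. Groups of 1 array could not be searched for outlying arrays.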

How the results depend on the processing

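The count of histone rows called lower at 24 h was 38 and lay between 32 and 40 under the other settings (37 or 38 with any 1 array left out; leaving out DMSO 24 h removes the control). The 1 row called higher became 0 with the stricter filter, which tests fewer rows, and 0 to 2 with an array left out. The F-test count of 32 lay between 22 and 41. The median change of the tested rows at 24 h, −1.01, was −0.88 with no filter, −1.42 with the stricter filter, −0.90 with a pseudocount of 16, −1.13 with the DMSO arrays as 1 control and −1.23 with single-symbol rows. At 6 h the median of −0.02 was 0.044 after quantile normalization, −0.12 with the DMSO arrays as 1 control and −0.034 to 0.042 with an array left out. At 2 h the median of −0.06 was −0.047 with no filter, −0.071 with the stricter filter, −0.023 after quantile normalization, 0.12 with the DMSO arrays as 1 control and −0.081 to −0.0625 with an array left out. The cause of these shifts was not tested. No histone row was called at 2 or 6 h under any setting. No paired analysis was possible because each treatment and time has 1 array and the labels number no replicates.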

Other observations

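Rows whose annotation joined a histone symbol with one outside these families were not members. The row of H2BC12 and H2BC12L read 5.65 and 5.39 (log2) with PD184352 and PLX4720 at 24 h, against 5.58 with DMSO. In the same order, the row of H2BC18, H3C13 and H2BP1 read 8.18 and 8.07, against 7.85 with DMSO. The row of H2BC20P and H2BC21 read 6.18 and 5.73, against 5.55 with DMSO. This row and that of H2BC12 and H2BC12L were too dim to test.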
